A study of Mus musculus with 12 samples.

Results

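The genes that move iron, heme and folate through intestinal cells were followed in 12 bulk RNA-seq libraries of adult mice. The 9 genes, of 54532 in each table, were *Slc46a1*, *Slc19a1*, *Cybrd1*, *Slc11a2*, *Heph*, *Slc40a1*, *Tfrc*, *Fth1* and *Ftl1*. They were found by symbol in the crypt table and in the tumor table, and all 9 were present in both. The set was chosen on these data because *Slc46a1* was higher in the knockout libraries of both tissues. The values of *Slc46a1* are therefore a description and carry no test, whereas the other 8 genes were tested together with all genes.

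The knockout mice lacked ieCtnnb1, an enhancer upstream of *Ctnnb1* that is active in the intestine. *Ctnnb1* encodes β-catenin, the effector of Wnt signaling. The deletion is in the germline and homozygous, so every cell of a knockout animal carries it. Small intestinal crypts were compared between 3 Wild type and 3 ieCtnnb1KO libraries, with no treatment. Colon tumors were compared between 3 APCmin/+ and 3 APCmin/+;ieCtnnb1KO libraries, so all 6 tumor libraries carry 1 mutant *Apc* allele, which starts the tumors, and differ in the enhancer. Crypts had been released with EDTA and passed through a filter that holds back villi. Tumors were taken whole, with their stroma, immune cells and blood. The labels number 3 replicates in each group and do not say whether a library came from 1 mouse, so p-values measure the spread between these libraries.

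Iron enters the enterocyte from the gut lumen after Cybrd1 reduces it and Slc11a2 (DMT1) carries it across the apical membrane. Inside the cell it is stored in ferritin, a shell of Fth1 and Ftl1 subunits, or leaves across the basolateral membrane through Slc40a1 (ferroportin), with Heph oxidizing it on the way out. Dividing crypt cells take iron from blood through Tfrc, the transferrin receptor. Slc46a1 is the proton-coupled folate transporter of the upper small intestine, first described as a heme carrier, and Slc19a1 is the reduced folate carrier that most dividing cells use. The iron genes are classically controlled after transcription: the iron regulatory proteins Aco1 and Ireb2 bind a hairpin, the iron-responsive element, which blocks translation when it lies before the coding sequence and protects the mRNA when it lies behind it. RNA-seq measures the mRNA only, so an effect on translation would not be seen here.

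The hairpins are shown because the iron regulatory proteins bind this form, although a match of letters is not a measured site. They were searched in GENCODE M21 transcripts (build GRCm38) as the loop CAGTGN, with any base but G at its last position, between 5 paired bases on each side, G-T pairs allowed, and an unpaired C before the first stem. Such a hairpin was found before the coding sequence in 0.11% of 20916 genes and behind it in 0.475% of 21045 genes. Among the 9 genes, 4 held at least 1. The loop is in capitals, and each line gives 29 bases 5′ to 3′.
*Fth1*, before the coding sequence, chr19:9982732-9982760, plus strand: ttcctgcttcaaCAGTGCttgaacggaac
*Ftl1*, before the coding sequence, chr7:45459779-45459807, minus strand: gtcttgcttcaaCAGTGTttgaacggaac
*Slc40a1*, before the coding sequence, chr1:45925465-45925493, minus strand: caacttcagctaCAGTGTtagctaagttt
*Tfrc*, behind the coding sequence, chr16:32631219-32631247, plus strand: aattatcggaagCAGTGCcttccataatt
*Tfrc*, behind the coding sequence, chr16:32631598-32631626, plus strand: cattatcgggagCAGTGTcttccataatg
*Tfrc*, behind the coding sequence, chr16:32631663-32631691, plus strand: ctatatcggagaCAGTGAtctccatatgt
*Tfrc*, behind the coding sequence, chr16:32631710-32631738, plus strand: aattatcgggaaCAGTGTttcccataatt
The storage genes and the exporter held 1 hairpin each ahead of their coding sequence, and the receptor held 4 behind it. No sequence of this exact form was found in the other 5 genes, which says only that these letters were not there.

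Values are FPKM, fragment counts scaled to gene length and library size, as the authors deposited them. Depth was similar in all libraries, from 14457896 to 16156712 fragments assigned to genes. The targeted gene *Ctnnb1* (chr9:120929216-120960507) was lower in the knockouts of both tissues, from 102 to 105 FPKM against 121 to 134 in wild-type crypts, and from 248 to 279 FPKM against 299 to 364 in APCmin/+ tumors. These values go with the labels, although neither passed adjustment over all genes (limma adjusted p = 0.849 and 0.303). Wild-type crypt replicates 1 and 2 held stomach transcripts (*Gkn2* at 12.3 and 15.1 FPKM, and 0 in the other 4 crypt libraries). Replicate 3 of each tumor group was female by *Xist* (114 and 61.4 FPKM), and the other 10 libraries had *Xist* below 1 FPKM.

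The levels of the 9 genes were far apart within a tissue. In wild-type crypts *Fth1* was highest with a mean of 1140 FPKM, followed by *Ftl1* at 232, *Tfrc* at 39.9, *Heph* at 26.3, *Slc19a1* at 9.29, *Slc11a2* at 9.03, *Slc46a1* at 6.28, *Slc40a1* at 2.07 and *Cybrd1* at 1.14 FPKM. The ranges of 3 neighboring pairs overlapped: *Tfrc* with *Heph*, *Slc19a1* with *Slc11a2*, and *Slc40a1* with *Cybrd1*. In APCmin/+ tumors the order began in the same way, with *Fth1* at 1761, *Ftl1* at 307 and *Tfrc* at 59.4 FPKM. It went on with *Slc11a2* at 18.0, *Slc40a1* at 9.15, *Slc46a1* at 8.45, *Slc19a1* at 5.56, *Heph* at 5.38 and *Cybrd1* at 0.763 FPKM. There the pairs *Slc40a1* with *Slc46a1* and *Slc19a1* with *Heph* overlapped. In knockout crypts *Slc46a1* had the next highest mean after *Heph*, with a range that overlapped that of *Slc11a2*, and in knockout tumors the neighbors from *Slc11a2* through *Slc40a1* and *Slc46a1* to *Heph* overlapped. The tables were normalized separately, so levels were compared within a tissue only. The plot of all libraries shows the order and the spread.

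**Figure D1:**
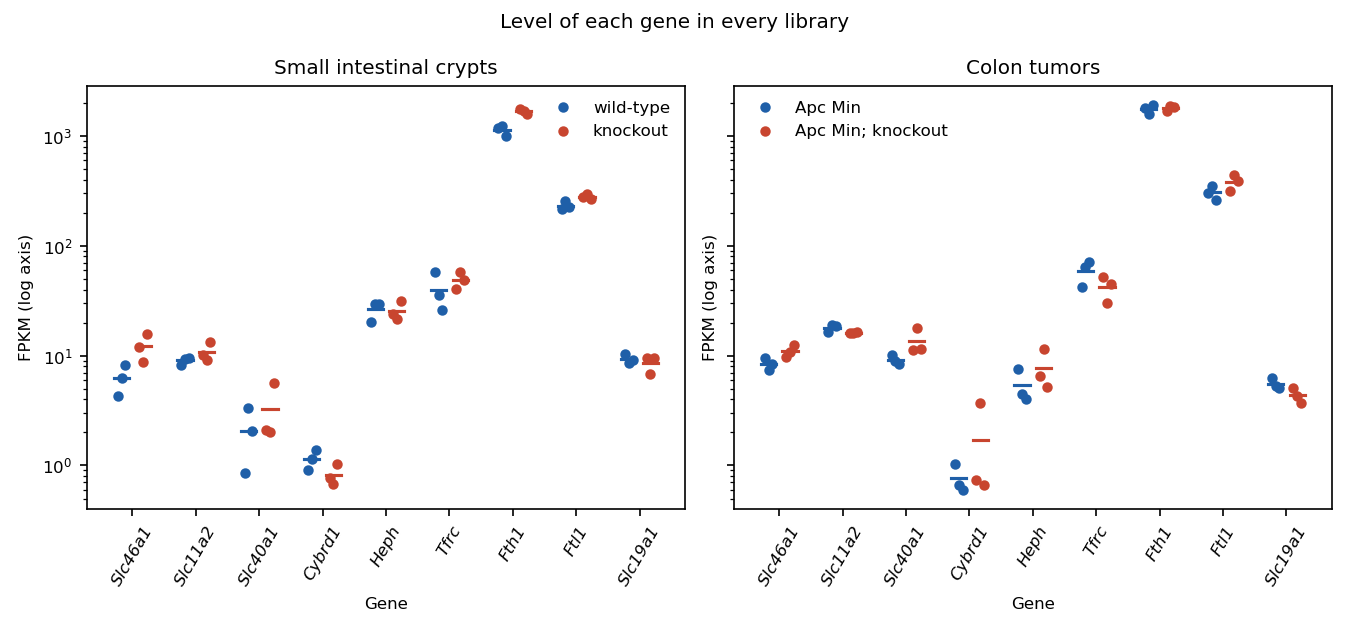
FPKM of the 9 genes in every library on a log axis, in crypts on the left and tumors on the right, with controls in blue, knockouts in red and a bar at each group mean. The knockout points of *Slc46a1*, *Fth1* and *Ftl1* lie above all wild-type points in crypts, from 8.68, 1595 and 264 FPKM upward, and a single tumor point of *Cybrd1* stands at 3.72 FPKM.

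*Slc46a1* (chr11:78465697-78472059, plus strand) had a mean level 1.93 times as high in knockout crypts as in wild-type crypts. Its FPKM were 4.32, 6.31 and 8.22 in wild-type and 11.9, 8.68 and 15.8 in knockout crypts. The lowest knockout library was above the highest wild-type library by less than the spread within either group, and both groups were spread widely. The means were 6.28 ± 1.95 and 12.1 ± 3.56 FPKM (SD, n = 3 each), a log2 fold change on the log2(FPKM + 0.5) scale of 0.90, or 1.87-fold. In tumors the FPKM were 9.55, 7.46 and 8.36 in APCmin/+ and 9.79, 10.9 and 12.4 in the knockouts. The groups were again apart, here by a narrow gap, and the log2 fold change was 0.36 (means 8.45 ± 1.05 and 11.0 ± 1.30 FPKM, n = 3 each). Between 206 and 683 fragments lay behind each of the 12 values. In male tumors alone, 2 libraries a group, the log2 fold change was 0.28. Since the gene was picked for this separation, nothing is read from it.

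*Slc46a1* is an enterocyte gene, so markers of differentiated epithelium were measured beside it. The summed FPKM of 10 enterocyte markers was 4980, 7336 and 11770 in wild-type and 10040, 7649 and 11570 in knockout crypts, overlapping between the groups, with 10 of 10 markers above 0.5 FPKM on average. The sum of 8 proximal small intestine markers was 433, 411 and 1290 in wild-type and 1407, 779 and 970 in knockout crypts. Of these 8, *Gata4*, *Pdx1* and *Adh6a* were higher in every knockout than in every wild-type library, and so were *Rbp2* and *Mttp* of the enterocyte markers. The 7 distal markers summed to 1017, 2545 and 4178 in wild-type and 1534, 1669 and 2013 in knockout crypts. Wild-type replicate 1 thus had both the least *Slc46a1* and the lowest enterocyte sum. In tumors the enterocyte sum was 132, 113 and 90.8 in APCmin/+ and 142, 175 and 136 in the knockouts. The groups were apart in this sum and in 1 of 10 markers, *Vil1*, which made up most of the sum (means 93.2 and 130 FPKM). *Anpep* (means 9.33 and 6.49 FPKM) and *Mttp* (1.02 and 0.771 FPKM) were lower on average in the knockouts. The remaining enterocyte markers had higher means there, and the groups overlapped for all but *Vil1*. Of the 8 proximal markers, 3 had a mean of at least 0.5 FPKM in tumors. Among them were *Onecut2* at 7.10 to 21.05 and *Gstm3* at 3.47 to 5.33 FPKM, while *Fabp1* and *Cyp3a11* were at 0 in 5 of 6 tumor libraries. The part of these markers in the *Slc46a1* difference was not tested. In bulk tissue, fewer cells of a type and less RNA per cell cannot be told apart. The crypt log2 fold change of *Slc46a1* was 0.68 without wild-type replicate 1 and 0.50 without both wild-type libraries with stomach transcripts.

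**Figure D2:**
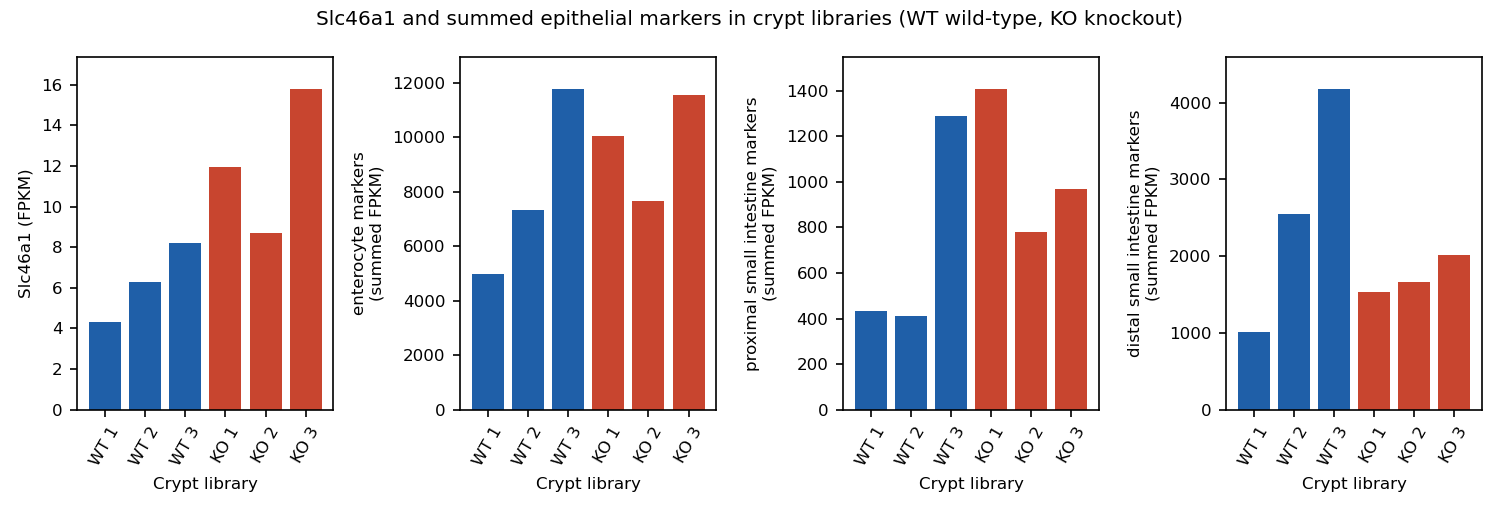
*Slc46a1* (FPKM) and the summed FPKM of enterocyte, proximal and distal small intestine markers in the 6 crypt libraries, 1 bar per library, wild-type in blue and knockout in red. Wild-type library 1 is lowest for *Slc46a1* (4.32 FPKM) and for the enterocyte sum (4980 FPKM), and knockout library 3 has the highest *Slc46a1* (15.8 FPKM).

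Of the other 8 genes, 0 had an adjusted p under 0.05 in either tissue by limma, and limma-voom on the recovered fragments likewise called 0. The background was the same, with 0 of 14176 genes (0%) called in crypts and 0 of 16743 (0%) in tumors. At an unadjusted p under 0.05, 1 of the 8 passed in crypts, where 5.85% of all genes did, and 1 of the 8 in tumors, where 14.5% did. By full separation of the groups, 2 of the 8 were higher and 0 lower in knockout crypts, against 6.79% and 5.15% of all genes. In tumors 1 was higher and 2 were lower, against 11.4% and 10.6%. The 8 genes had a median log2 fold change of 0.25 in crypts and 0.18 in tumors, and all genes tested had medians of 0.01 in both. Without both wild-type libraries with stomach transcripts, 3 of the 8 were higher and 1 was lower in crypts, beside 5024 (35.4%) and 4134 (29.2%) of the 14176 genes, since a single wild-type library was left. Then *Fth1* had a log2 fold change of 0.74, *Ftl1* of 0.31, *Tfrc* of 0.89 and *Cybrd1* of -0.52. An exact permutation test of 3 against 3 libraries cannot go below p = 0.1, the value full separation gives.

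**Figure D3:**
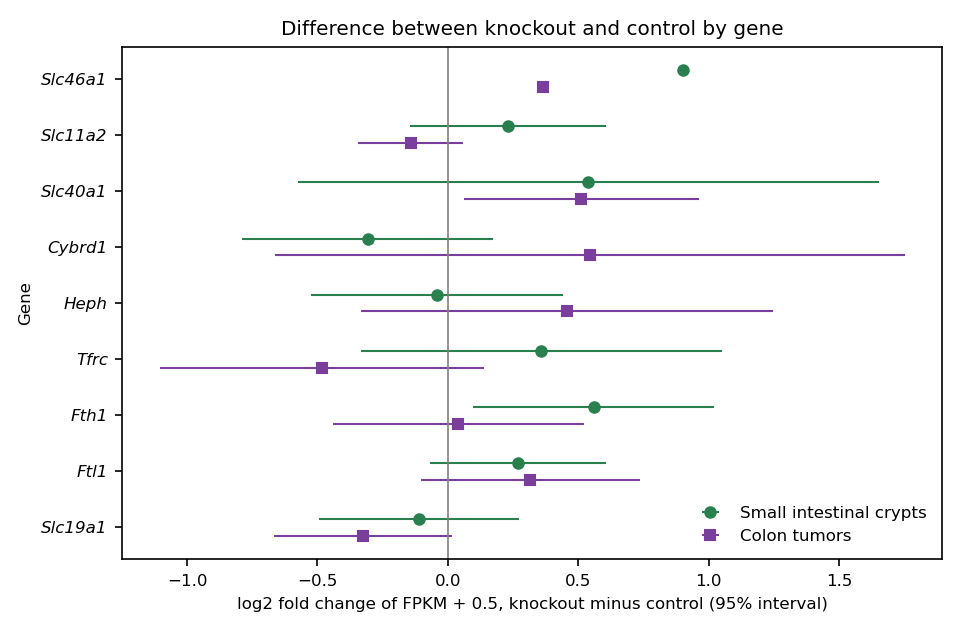
Log2 fold change of FPKM + 0.5, knockout minus control, for the 9 genes in crypts (green circles) and tumors (purple squares), with the 95% interval of the limma fit. *Slc46a1* is drawn without an interval since it was chosen by this difference. Intervals that leave out 0 belong to *Fth1* in crypts (0.10 to 1.02) and *Slc40a1* in tumors (0.06 to 0.96), and neither passed adjustment over all genes.

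Among the 8 tested genes, the ferritin subunits were the 2 that kept the crypt groups apart. *Fth1* (chr19:9982703-9985092, plus strand), the heavy subunit that oxidizes iron for storage, was measured at 1181, 1235 and 1004 FPKM in wild-type and 1752, 1676 and 1595 in knockout crypts. All knockout libraries were higher, and the gap between the groups was wider than the spread within either. The log2 fold change was 0.56 ± 0.19 (SE; n = 3 each; limma adjusted p = 0.806, the gene with an unadjusted p under 0.05). *Ftl1* (chr7:45457944-45459884, minus strand), the light subunit, had 215, 256 and 226 FPKM in wild-type and 278, 296 and 264 in knockout crypts. The groups were apart here too, although narrowly (log2 fold change 0.27 ± 0.14, limma adjusted p = 0.86), and they overlapped after rescaling without the 50 highest genes or quantile normalization. *Fth1* stayed apart under the 3 rescalings.

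In tumors the groups overlapped for both subunits. *Fth1* stood at 1792, 1585 and 1906 FPKM in APCmin/+ and at 1705, 1879 and 1834 in the knockouts, fully intermixed (log2 fold change 0.04 ± 0.20, 95% interval -0.44 to 0.52, limma adjusted p = 0.945). Under quantile normalization the sign turned to -0.24 and every knockout was lower. *Ftl1* was at 306, 353 and 262 FPKM in APCmin/+ and 317, 440 and 390 in the knockouts. Both highest values were knockouts, but the groups overlapped (0.32 ± 0.18, limma adjusted p = 0.434). The pseudogene *Ftl1-ps1* was counted at a mean of 5.11 FPKM in crypts and 5.93 in tumors, and in tumors it was higher in every knockout library (2.68 to 5.71 FPKM against 5.93 to 9.99).

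The iron exporter *Slc40a1* (chr1:45908068-45926523, minus strand) was the only one of the 8 genes that was higher in every knockout tumor. It had 10.1, 8.98 and 8.39 FPKM in APCmin/+ and 11.3, 17.9 and 11.4 in knockout tumors. Knockout replicate 2 was far above the others, and the log2 fold change was 0.51 ± 0.19 with it (limma adjusted p = 0.321, the gene with an unadjusted p under 0.05) and 0.30 without it. Macrophages also express *Slc40a1*. The sum of 10 macrophage markers was 232, 158 and 197 FPKM in APCmin/+ and 260, 329 and 219 in knockout tumors. It was highest in the same replicate 2. *C1qa* and *Marco* were higher in all knockouts, *Marco* at 0.104 to 0.933 FPKM and below the level filter. *Clec4f* was at 0 in all 6 tumor libraries. The groups overlapped for the rest, among them *Csf1r* (means 16.4 and 17.9 FPKM), *Cd68* (19.0 and 19.3 FPKM) and *Vsig4* (0.128 and 0.0707 FPKM). The part of these markers in the *Slc40a1* values was not tested. In crypts the gene was low, at 0.847, 3.32 and 2.05 FPKM in wild-type and 2.12, 2.02 and 5.58 in knockout libraries, with overlapping groups (0.54 ± 0.47, limma adjusted p = 0.909). The macrophage sum was 4.12 to 21.4 FPKM in crypts and lowest in the library with the most *Slc40a1*, knockout replicate 3.

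*Heph* (chrX:96455359-96574485, plus strand), the copper oxidase that works with ferroportin, did not separate the groups. It was at 20.3, 29.2 and 29.4 FPKM in wild-type and 23.9, 21.4 and 31.4 in knockout crypts, with a log2 fold change of -0.04 ± 0.20 (95% interval -0.52 to 0.44, limma adjusted p = 0.991). In tumors it was at 7.59, 4.49 and 4.05 FPKM in APCmin/+ and 6.54, 11.5 and 5.14 in the knockouts (0.46 ± 0.33, limma adjusted p = 0.531). Knockout replicate 2 was again the highest tumor library, and without it the value was 0.15. The pseudogene *Rpl17-ps8* lies within *Heph* on the same strand over 621 bases, at a mean of 4.21 FPKM in crypts and 1.43 in tumors.

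The apical pair gave small or unstable differences. *Slc11a2* (chr15:100387898-100425072, minus strand) had 8.28, 9.30 and 9.51 FPKM in wild-type and 10.1, 9.07 and 13.2 in knockout crypts, where the groups overlapped (0.23 ± 0.16, limma adjusted p = 0.896) and were apart after rescaling to the same total. In tumors it went the other way, with 16.5, 18.9 and 18.5 FPKM in APCmin/+ and 16.1, 16.1 and 16.5 in the knockouts. Every knockout tumor was lower, with almost no gap between the groups, and the log2 fold change was -0.14 ± 0.08 (limma adjusted p = 0.459). *Cybrd1* (chr2:71117923-71142926, plus strand), the reductase, was the lowest of the 9 genes, with 48 to 319 fragments a library. It had 0.907, 1.14 and 1.39 FPKM in wild-type and 0.771, 0.682 and 1.03 in knockout crypts, overlapping (-0.31 ± 0.20, limma adjusted p = 0.896). Its tumor values were 1.03, 0.658 and 0.601 FPKM in APCmin/+ and 0.733, 3.72 and 0.661 in the knockouts. Knockout replicate 2 made the whole tumor difference, since the log2 fold change was 0.54 ± 0.51 with it (limma adjusted p = 0.627) and -0.06 without it.

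*Tfrc* (chr16:32608920-32632794, plus strand), the receptor for transferrin-bound iron, had opposite signs in the tissues without passing a test in either. It was at 57.9, 35.9 and 25.9 FPKM in wild-type and 40.5, 58.0 and 48.9 in knockout crypts (0.36 ± 0.29, limma adjusted p = 0.905). The groups overlapped, and wild-type replicate 1 alone came close to the highest knockout library. The log2 fold change was 0.66 without that library and 0.09 without wild-type replicate 3, the lowest. In tumors *Tfrc* was at 42.3, 64.5 and 71.3 FPKM in APCmin/+ and 52.0, 30.3 and 44.8 in the knockouts (-0.48 ± 0.26, limma adjusted p = 0.422). The lowest value was that of knockout replicate 2, and without it the difference was -0.26. Summed cycling markers overlapped between the groups in both tissues, from 118 to 165 FPKM in crypts and from 139 to 186 in tumors.

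*Slc19a1* (chr10:77032241-77061002, plus strand) was at 10.3, 8.51 and 9.07 FPKM in wild-type and 9.46, 6.83 and 9.61 in knockout crypts, with overlapping groups (-0.11 ± 0.16, limma adjusted p = 0.942). In tumors it was at 6.30, 5.27 and 5.10 FPKM in APCmin/+ and 5.04, 4.30 and 3.70 in the knockouts. Every knockout tumor was lower, with almost no gap between the groups (-0.33 ± 0.14, 95% interval -0.67 to 0.02, limma adjusted p = 0.362), and the groups overlapped under quantile normalization. *Col18a1* shares 8825 bases with *Slc19a1* on the opposite strand, and the use of strand in counting is not given in the sources used here. *Col18a1* had 56.7, 27.3 and 31.2 FPKM in APCmin/+ and 62.4, 85.1 and 61.3 in knockout tumors, the reverse direction, and 0.35 to 0.87 FPKM in crypts.

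The effect of the deletion was also compared between tissues, as the tumor log2 fold change minus that of crypts. Of the 8 genes 0 had an adjusted p under 0.05, as did 0 of 13370 genes (0%), and 1 had an unadjusted p under 0.05, where 8.47% of all genes did. That gene was *Fth1*, whose difference of -0.52 ± 0.22 (limma adjusted p = 0.567) joins 0.56 in crypts with 0.04 in tumors. *Tfrc* had -0.84 ± 0.43 and *Slc11a2* -0.37 ± 0.18 (limma adjusted p = 0.622 and 0.609). *Cybrd1* had 0.85 ± 0.58, *Heph* 0.50 ± 0.42 and *Slc19a1* -0.21 ± 0.22 (limma adjusted p = 0.721, 0.776 and 0.813). The value of *Slc46a1*, not tested, was -0.54. *Ftl1* and *Slc40a1* had differences of 0.05 ± 0.22 and -0.03 ± 0.56, with 95% intervals of -0.43 to 0.52 and -1.25 to 1.20, so a difference between the tissues was not detectable at this precision and the interval of *Slc40a1* was wide.

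*Slc46a1*, *Fth1* and *Ftl1* were the members higher in every knockout crypt library, and the 250 bases before their RefSeq start sites (GRCm38.p6) are shown for that reason. RefSeq windows were matched for 6 of the 9 genes by symbol, and for *Fth1* 1 of 2 listed starts is shown. Motifs in capitals were searched on both strands: the hypoxia response core ACGTG, the TCF/LEF site CTTTGAT bound by the partners of β-catenin, the metal response core TGCGCNC, the antioxidant response core TGACNNNGC and the inverted CCAAT box ATTGG.
*Slc46a1*, chr11:78465451-78465700, plus strand: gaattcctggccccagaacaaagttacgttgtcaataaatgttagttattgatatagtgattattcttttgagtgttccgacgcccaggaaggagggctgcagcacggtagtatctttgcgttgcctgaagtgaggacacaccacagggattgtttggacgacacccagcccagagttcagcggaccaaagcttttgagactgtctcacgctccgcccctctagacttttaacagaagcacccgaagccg
*Fth1*, chr19:9982396-9982645, plus strand: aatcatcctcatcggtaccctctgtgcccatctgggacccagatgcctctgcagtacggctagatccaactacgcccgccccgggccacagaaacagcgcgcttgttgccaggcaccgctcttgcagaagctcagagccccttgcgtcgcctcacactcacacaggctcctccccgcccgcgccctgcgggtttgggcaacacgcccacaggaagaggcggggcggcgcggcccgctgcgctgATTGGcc
*Ftl1*, chr7:45459887-45460136, minus strand: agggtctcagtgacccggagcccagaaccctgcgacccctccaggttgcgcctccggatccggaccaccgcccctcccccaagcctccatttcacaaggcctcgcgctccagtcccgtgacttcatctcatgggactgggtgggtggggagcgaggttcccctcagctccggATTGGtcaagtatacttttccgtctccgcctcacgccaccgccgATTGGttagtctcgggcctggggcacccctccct
The ferritin windows held 1 and 2 inverted CCAAT boxes, which are in 33.8% of 32851 windows, and no other match. The *Slc46a1* window held none of the 5, which are found in 16.6% (ACGTG), 3.21% (CTTTGAT), 12.5% (TGCGCNC), 10.2% (TGACNNNGC) and 33.8% (ATTGG) of windows. Only these exact letters were searched, so a window without a match could still hold another form of the same site. The GC content was 49.6% for *Slc46a1*, 66.8% for *Fth1* and 65.2% for *Ftl1*.

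The other genes of iron, heme and folate handling were taken as 7 lists of 128 genes, of which 98 were tested in crypts and 110 in tumors. None had an adjusted p under 0.05 by limma (lowest 0.743 in crypts and 0.269 in tumors). Before adjustment, 8 of the 98 crypt genes and 16 of the 110 tumor genes had a limma p below 0.05. Of all genes tested, 5.85% in crypts and 14.5% in tumors did, so the tumor count was at the level of all genes. In crypts 13 (13.3%) were higher and 5 (5.1%) lower in every knockout library. In tumors 14 (12.7%) were higher and 7 (6.36%) lower. For comparison, the shares over all genes were the 6.79% and 5.15% and the 11.4% and 10.6% given above. Median log2 fold changes below stand against 0.01 for all genes in each tissue. Rescaled to the same total, without the 50 highest genes and under quantile normalization, 912, 598 and 762 of 14176 genes were higher in crypts. In tumors 1446, 1438 and 1562 of 16743 were.

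**Figure D4:**
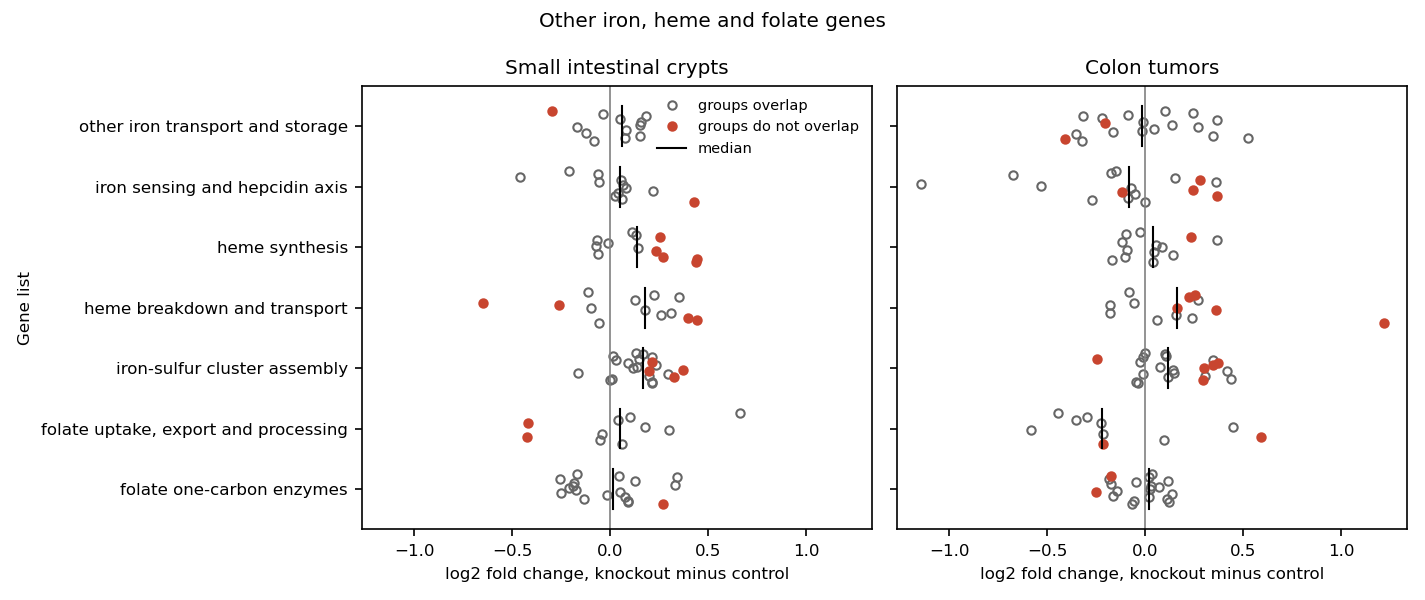
Log2 fold change, knockout minus control, of the tested genes of the 7 lists, in crypts on the left and tumors on the right, with red filled points where the groups do not overlap and a black bar at the list median. In crypts 5 heme synthesis genes are filled on the right of 0, and in tumors the farthest point on the right is *Hmox1* at 1.22.

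In crypts the heme synthesis list had 5 of 12 genes higher in every knockout library and 0 lower, with a median of 0.14. *Alas1*, the rate-limiting enzyme of heme synthesis outside red cells, was at 17.8, 19.4 and 17.3 FPKM in wild-type and 25.9, 23.8 and 24.4 in knockout crypts (0.43 ± 0.11, limma adjusted p = 0.743). *Alad*, the next enzyme, was at 32.0, 31.7 and 24.9 FPKM against 43.8, 38.1 and 38.4 (0.44 ± 0.14). *Urod* and *Tmem14c* were higher as well. The count was 3 of 12 under each of the 3 rescalings, and 7 higher and 1 lower without the 2 wild-type libraries with stomach transcripts, where 35.4% and 29.2% of all genes were. In tumors 1 of 13 was higher, *Tmem14c*, at 90.9, 87.9 and 72.0 FPKM in APCmin/+ and 93.2, 94.4 and 107 in the knockouts, and the median was 0.04, or -0.04 under quantile normalization.

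The list of heme breakdown and transport was mixed in crypts, with 2 of 13 genes higher and 2 lower and a median of 0.18. *Hmox2*, the constitutive heme oxygenase, was at 10.4, 9.65 and 10.9 FPKM in wild-type and 15.5, 14.8 and 12.3 in knockout crypts, and *Blvra*, which turns biliverdin into bilirubin, differed by 0.40 ± 0.13. *Abcc5* was lower, at 1.67, 1.92 and 2.41 FPKM against 0.943, 1.06 and 1.27. *Slc48a1*, a heme transporter of the lysosome, was lower as well (-0.26 ± 0.11). In tumors 5 of 13 were higher and 0 lower (median 0.16). *Hmox1*, the inducible heme oxygenase that releases iron from heme, was at 40.1, 25.5 and 19.8 FPKM in APCmin/+ and 46.2, 83.9 and 67.9 in knockout tumors. This was the largest tested log2 fold change of the 7 lists in tumors (1.22 ± 0.31, limma adjusted p = 0.269), and without knockout replicate 2 it was 1.02. *Pgrmc1* differed by 0.23 ± 0.08, and *Abcg2*, *Slc48a1* and *Pgrmc2* were the others. Without both wild-type libraries with stomach transcripts the crypt counts were 2 higher and 4 lower of 13, against 35.4% and 29.2% of all genes, and the median was -0.04. The tumor count was 3 of 13 after rescaling to the same total and after quantile normalization.

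The iron-sulfur cluster list had medians above 0 in both tissues. In crypts 4 of 21 genes were higher in every knockout library and 0 lower, 19 had a log2 fold change above 0, and the median was 0.17. *Fdx1*, a ferredoxin, was at 5.99, 7.40 and 7.87 FPKM against 9.62, 8.85 and 8.42, and *Isca1* at 7.30, 6.69 and 4.53 against 7.59, 8.51 and 7.91. The count varied from 1 to 3 under the 3 rescalings and was 11 higher and 2 lower without the 2 wild-type libraries with stomach transcripts, against 35.4% and 29.2% of all genes. In tumors 4 of 21 were higher and 1 lower, with a median of 0.11. *Nfu1* (0.35 ± 0.10) and *Bola3* (0.37 ± 0.12), late-acting assembly factors, were higher, and *Mms19*, of the cytosolic machinery, was lower (-0.24 ± 0.10).

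Among the iron sensing genes in crypts, *Aco1*, the iron regulatory protein that doubles as cytosolic aconitase, was the only 1 of 12 that was higher in all knockouts, at 35.3, 40.8 and 40.8 FPKM against 59.7, 41.8 and 57.8, and 0 were lower (median 0.05). In tumors 3 of 16 were higher and 1 was lower, with a median of -0.08. *Egln1*, an oxygen-sensing prolyl hydroxylase that needs iron, was at 28.0, 25.5 and 26.7 FPKM against 32.5, 29.7 and 33.1, and *Epas1*, the HIF2 subunit that drives intestinal iron absorption genes, at 18.2, 13.7 and 14.9 against 19.2, 23.2 and 18.2. *Arnt* was lower by a narrow margin (-0.12 ± 0.09). Of the other iron transport and storage genes, 0 of 12 were higher and 1 was lower in crypts (*Slc22a17*, -0.30 ± 0.23, median of the list 0.06). In tumors 0 of 18 were higher and 2 lower, *Steap2*, a metalloreductase (-0.41 ± 0.15), and *Pcbp2*, an iron chaperone (-0.20 ± 0.09), with a median of -0.01.

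Of 10 genes of folate uptake, export and processing, 0 were higher and 2 lower in crypts (median 0.05), and 1 was higher and 1 lower in tumors (median -0.22). *Ggh*, which trims polyglutamate from folate, was lower in knockout crypts, at 7.27, 6.12 and 6.59 FPKM against 5.81, 4.95 and 3.88, and higher in knockout tumors, at 29.6, 22.3 and 27.7 FPKM against 31.5, 50.2 and 40.0. *Abcc4* was lower in crypts (-0.42 ± 0.18) and *Slc25a32*, the mitochondrial folate carrier, in tumors (-0.21 ± 0.11). *Slc46a2*, the nearest relative of *Slc46a1* by name, was at 0 in all crypt libraries. Of the folate one-carbon enzymes, 0 of 18 were lower in crypts (median 0.01). In tumors 0 of 19 were higher and 2 lower, *Mtfmt* (-0.17 ± 0.09) and *Mthfd2l* (-0.25 ± 0.15), with a median of 0.02.

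The genes whose pattern was most like that of *Slc46a1* were sought over the 12 libraries, on log2(FPKM + 0.5) centred within each table, among 11562 genes. They were *Acsl5* (r = 0.965, rho = 0.909), *Slc35c2* (0.959, 0.937), *Pmm1* (0.939, 0.881), *Pdcd6* (0.922, 0.832) and *Pex5* (0.921, 0.895). *Acsl5*, an acyl-CoA synthetase of enterocytes, was at 119, 129 and 165 FPKM in wild-type and 201.2, 154 and 243 in knockout crypts, and at 18.9, 17.4 and 17.7 against 19.1, 19.0 and 20.7 in tumors. Its crypt groups overlapped. Among the 7 other members that passed the level filter, which *Cybrd1* did not, r with *Slc46a1* was highest for *Slc40a1* (0.732, rho = 0.629, rank 274 among the 11562 genes). *Fth1* (0.618, rho = 0.741, rank 708) and *Slc11a2* (0.617, rho = 0.231, rank 712) followed, then *Ftl1* (0.488, rank 1396) and *Heph* (0.368, rank 2218). The r was -0.23 for *Slc19a1* and -0.244 for *Tfrc*. These values describe 12 libraries that share their sequencing and, within a group, their genotype. Centring was by tissue and not by group, so r includes the knockout difference by which *Slc46a1* was picked. The order is therefore a description, and nothing is read from it.

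Markers of other cell types also differed between the groups. In tumors the 7 goblet cell markers were higher in every knockout library (7 of 7), with sums of 1407 to 1455 FPKM in APCmin/+ and 2689 to 3222 in the knockouts. Fibroblast and muscle markers summed to 298 to 456 FPKM against 475 to 566 (4 of 8 higher), and distal small intestine markers to 138 to 162 against 235 to 369 (4 of 7 higher). Most of the distal sum was *Muc3* (means 93.8 and 207 FPKM) and *Guca2a* (47.2 and 107 FPKM). The groups overlapped for *Fabp6* (0.664 and 1.01 FPKM), *Slc10a2* (1.57 and 1.42 FPKM) and *Slc51a* (0.0459 and 0.0527 FPKM), all low in tumors. Colonocyte, Paneth and proximal small intestine sums overlapped in tumors, as did stomach sums (9.21 to 27.9 FPKM). The sums of 8 erythroid markers were 242 to 342 FPKM in APCmin/+ and 673, 53.0 and 1105 in knockout tumors. In crypts, sums of Paneth, goblet, colonocyte, macrophage, erythroid, and fibroblast and muscle markers overlapped between groups, and the last 3 were at most 21.4, 18.4 and 6.02 FPKM. Single crypt markers were apart: of 7 Paneth markers *Lyz1* (means 9878 and 6577 FPKM) and *Mmp7* (413 and 248 FPKM) were lower in every knockout library, and of 8 colonocyte markers *Slc26a3* (14.9 and 20.7 FPKM) and *Car4* (49.3 and 92.3 FPKM) were higher. *Col3a1* of the 8 fibroblast and muscle markers and *Plk1* of the 8 cycling markers were lower, and of 10 stomach markers *Atp4a* was higher and *Cblif* lower, both below 1 FPKM. Mitochondrial genes took 13.5 to 19.0% of the signal in wild-type and 10.7 to 14.9% in knockout crypts. The part of these differences in the results above was not tested.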

How the data were processed

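RNA-seq was read as 150 bp pairs. The labels name cutadapt, HISAT2, Cufflinks 2.2.1, DESeq2 and mm10, and the study's methods name HISAT2, featureCounts and DESeq2, so the tool behind the deposited values is not settled. The authors deposited FPKM per gene, 1 table per tissue, replicates not pooled. FPKM times gene length was a whole multiple of 1 step in 100% of values (within 0.1), which gave the fragments per library. The library scaling was kept. Knockout was compared with control by limma 3.58.1 (R 4.3.3) on log2(FPKM + 0.5), which understates changes of low genes, with a variance trend, mean FPKM of at least 0.5, no covariates and Benjamini-Hochberg adjustment over all genes (threshold 0.05). Tissues were fitted apart, and their difference in a fit of all 12 libraries. Other pseudocounts, filters, scalings and limma-voom on the recovered fragments were tried. DESeq2 was not used. The fit was tested on simulated data. Members, lists and rules were chosen with earlier results of these data known. Named were all members and, per list and tissue, up to 2 genes per direction with the smallest p among those with groups apart. Other list members, overlapping genes and markers were named after their values were seen. Of the listed symbols, *Ahsp* and *Ndor1* were not matched. Gene positions are those of GRCm38. Single values of some listed genes are not reported here.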

Additional observations from a re-analysis of the deposited data

Results flagged for a closer look

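The response of *Ggh*, the lysosomal gamma-glutamyl hydrolase, was opposite in the tissues, with every knockout library lower in crypts and higher in tumors. The tumor effect minus the crypt effect was 1.01 ± 0.26 on the log2 scale (SE, 12 libraries, limma adjusted p = 0.437), so the difference did not pass adjustment over 13370 genes.

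*Slc48a1*, the lysosomal heme transporter, was likewise lower in every knockout crypt library and higher in every knockout tumor, with a difference of 0.42 ± 0.12 (limma adjusted p = 0.475). Its FPKM were 6.60, 6.68 and 6.82 in wild-type and 5.36, 6.03 and 5.18 in knockout crypts, and 20.9, 20.8 and 21.4 against 23.8, 24.6 and 22.5 in tumors.

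Groups of 3 libraries were too small for a search for single outlying values.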

How the results depend on the processing

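The count of the 8 tested members with an adjusted p under 0.05 was 0 in crypts, in tumors and for the difference between tissues under every alternative run: pseudocounts of 0.1 and 1, no filter or a mean FPKM of at least 1, 3 rescalings, no variance trend, voom (crypts and tumors), the replicate block and each library left out. The lowest adjusted p of a member over these was 0.257 in crypts, 0.244 in tumors and 0.287 for the difference. Alternatives chosen after seeing the data (without both wild-type crypt libraries with stomach transcripts, sex as a covariate, male tumors only) also gave 0. Over all genes, 3 were called in crypts without wild-type replicate 3, 1 in tumors with no variance trend, and 1 for the difference with a pseudocount of 0.1 and 1 with the replicate block.

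Directions of these log2 values turned. *Heph* in crypts became 0.042 and 0.046 without wild-type replicates 2 and 3 and 0.075 without knockout replicate 2 (range over libraries left out -0.214 to 0.075), and *Slc19a1* in crypts 0.040 without knockout replicate 2 (-0.193 to 0.040). *Fth1* in tumors became -0.005 at the same total, -0.006 without the 50 highest genes, -0.236 under quantile normalization and -0.034 without APCmin/+ replicate 2 (-0.034 to 0.098). *Cybrd1* in tumors became -0.063 without knockout replicate 2 (-0.063 to 0.869). The difference between tissues became, for *Slc40a1*, 0.041 with a pseudocount of 1, and 0.377 and 0.387 without wild-type crypt replicate 1 and knockout crypt replicate 3 (-0.375 to 0.387). It was 0.042, 0.084 and 0.075 without APCmin/+ replicate 1 and tumor knockout replicates 1 and 3. For *Ftl1* it became -0.023 at the same total, -0.042 under quantile normalization, -0.025 without wild-type crypt replicate 2 and -0.061 without APCmin/+ replicate 3 or tumor knockout replicate 2 (-0.061 to 0.176). The cause was not tested.

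Over all alternatives the log2 fold change of *Slc46a1* ran from 0.50 to 1.11 in crypts and from 0.28 to 0.45 in tumors, and its groups stayed apart under the 3 rescalings. Of all genes with groups apart, 56.9% were higher in crypts, and 59.8%, 36.3% and 52.6% at the same total, without the 50 highest genes and under quantile normalization. In tumors 51.8% became 38.6%, 38.3% and 42.8%. Of the 8 tested members, 2 were higher in all knockout crypt libraries, and 3, 1 and 1 under these rescalings. Over all 14176 genes tested in crypts the counts were 963, and 912, 598 and 762. Genes with an unadjusted p under 0.05 numbered 829 in crypts (462 to 1344 with a library left out, 1349 with no filter, 2240 without both libraries with stomach transcripts), 2421 in tumors (1399 to 2755, and 1205 in males only) and 1133 for the difference (751 to 1723, and 2010 with no filter).

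Replicate numbers do not mark shared animals in the labels, and deviations of same-numbered libraries correlated between -0.122 and 0.0541. With the replicate block, genes with an unadjusted p under 0.05 numbered 732 in crypts and 1882 in tumors, and 0 members were called.

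With 3 libraries a group, the 95% intervals of *Cybrd1* in tumors (-0.66 to 1.75) and *Slc40a1* in crypts (-0.57 to 1.65) were the widest of the 8 members, and a difference within them was not detectable with these libraries.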

Other observations

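Tumor knockout replicate 2 stood at an extreme of the 6 tumor libraries for several genes of iron handling, all named after their values were seen. It had the highest *Slc40a1*, *Heph*, *Cybrd1*, *Ftl1* and *Hmox1* and the lowest *Tfrc*. *Slc11a2* was also lowest there, at 16.05 FPKM against 16.08 in knockout replicate 1. *Slc46a1*, *Fth1* and *Slc19a1* were at no extreme. The share of all genes at an extreme in this library was not counted, so the pattern is not shown to be particular to iron handling. *Hamp*, which encodes the hormone hepcidin that degrades ferroportin, was at 0.304 FPKM there and between 1.96 and 3.91 in the other tumor libraries, and its copy *Hamp2* at 0.214 against 0.55 to 3.10. The values rest on 2 to 24 fragments a tumor library for *Hamp* and 2 to 27 for *Hamp2*. The reads of these near-identical copies could be split between them. *Alas2*, the red cell form of the heme synthesis enzyme, was at 0.493 FPKM in that library and between 4.16 and 11.0 in the others, and its erythroid marker sum of 53.0 FPKM was the lowest while its macrophage sum of 329 FPKM and goblet sum of 3222 FPKM were the highest. No explanation was tested.

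Several listed genes were tested in tumors and fell below the level filter in crypts. Of these, 3 iron-handling genes are given here, named after their values were seen. *Trf*, *Ltf*, *Scara5*, *Hamp*, *Hamp2*, *Bmp6*, *Tmprss6*, *Alas2* and *Hp* were among the others. *Lcn2*, which captures bacterial iron carriers, was at 60.4 to 88.2 FPKM in APCmin/+ and 41.1 to 95.1 in knockout tumors, with overlapping groups. *Steap4*, an inducible metalloreductase, was at 13.9 to 25.1 FPKM in APCmin/+ and 19.4 to 32.3 in knockout tumors, and *Cp*, ceruloplasmin, at 10.5 to 11.4 and 9.05 to 12.7. In crypts each of the 3 had a mean below 0.5 FPKM and was not tested. The tables were normalized separately, and whole colon tumors differ from filtered small intestinal crypts in gut region, cell mix and *Apc* genotype. These differences cannot be told apart, so no fold between tissues is given.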
